A study of Rattus norvegicus with 16 samples.

Results

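The 10 genes described here encode enzymes and nuclear receptors of hepatic bile acid synthesis: Cyp7a1, Cyp8b1, Hsd3b7, Cyp27a1, Cyp7b1, Slc27a5, Baat, Nr1h4, Nr0b2 and Nr5a2. They were found by matching the RefSeq identifiers of the non-control array probes to these rat symbols. All 10 had a probe, 12 probes in all among 30367, and all 10 were among the 12072 genes tested, with 2 probes each for Nr1h4 and Nr5a2. The tissue was liver of male Sprague-Dawley rat pups on postnatal day 21, and each of 16 arrays held RNA pooled from 2 pups of a treatment group, with 4 arrays in each of 4 groups. Group C stayed with its own dams, which received corn oil only. Group CC was born to and raised by control dams after litters were exchanged at birth. Group M stayed with its own dams, which received organochlorine pesticides, polychlorinated biphenyls and methylmercury as a mixture in corn oil at 1 mg per kg per day during gestation and lactation. Group MM was born to and raised by dams given that mixture, again after the exchange of litters. All dams thus received the corn oil vehicle. The labels do not say which pools shared a litter, so p-values measure the spread between pools.

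Bile acids are made from cholesterol in hepatocytes and serve both to dissolve dietary fat and to carry cholesterol out of the body. In the classical pathway Cyp7a1 makes the first and rate-limiting hydroxylation, Hsd3b7 then oxidises the steroid ring, and Cyp8b1 adds the hydroxyl group that decides for cholic acid. In the alternative pathway Cyp27a1 oxidises the side chain and Cyp7b1 hydroxylates the resulting oxysterol. Slc27a5 joins bile acids to coenzyme A and Baat links them to taurine or glycine. Bile acids bind the receptor FXR (Nr1h4), which induces SHP (Nr0b2), a repressor partner of LRH-1 (Nr5a2), and LRH-1 is itself an activator of Cyp7a1 and Cyp8b1.

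The promoters of Cyp8b1 and Nr0b2 are shown because they belong to an enzyme and a repressor that LRH-1 is known to act on, and that of Hsd3b7 because it was the only member that passed the test between groups. Each is the 250 bases before the start of the gene in RefSeq on build GRCr8, 5′ to 3′, with a match to the LRH-1 motif CAAGGNCA in capitals. The windows are chr8:130457593-130457842 on the minus strand for Cyp8b1, chr5:151062910-151063159 on the plus strand for Nr0b2 and chr1:191842438-191842687 on the plus strand for Hsd3b7.
Cyp8b1: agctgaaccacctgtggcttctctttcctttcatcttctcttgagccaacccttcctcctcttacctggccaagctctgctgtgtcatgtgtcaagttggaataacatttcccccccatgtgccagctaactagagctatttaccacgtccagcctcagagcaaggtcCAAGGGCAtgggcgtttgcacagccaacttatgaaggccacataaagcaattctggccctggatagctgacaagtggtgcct
Nr0b2: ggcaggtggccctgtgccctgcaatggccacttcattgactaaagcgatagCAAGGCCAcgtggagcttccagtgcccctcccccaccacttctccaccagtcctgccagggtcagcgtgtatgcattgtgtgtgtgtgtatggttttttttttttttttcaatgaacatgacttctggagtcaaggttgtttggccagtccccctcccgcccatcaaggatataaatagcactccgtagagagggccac
Hsd3b7: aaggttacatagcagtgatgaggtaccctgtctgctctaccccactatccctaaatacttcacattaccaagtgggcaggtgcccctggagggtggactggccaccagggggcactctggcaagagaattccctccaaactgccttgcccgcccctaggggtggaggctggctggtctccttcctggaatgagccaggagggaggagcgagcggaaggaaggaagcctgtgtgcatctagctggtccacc
Cyp8b1 held CAAGGGCA starting 82 bases before the gene, and Nr0b2 held CAAGGCCA starting 199 bases before it. The third printed window had no match to any motif searched. Of the 10 members, 7 were in the promoter table. Cyp7a1, Cyp7b1 and Nr1h4 were not, so their promoters were not searched. The table's window for Cyp27a1 lies inside the annotated span of the gene and that for Nr5a2 overlaps it, so these are bases before another start site than the outermost. By these windows, 3 of these 7 (Cyp8b1, Nr0b2 and Cyp27a1) held CAAGGNCA on either strand, against 5.58% of 33469 windows of this length. The nuclear receptor core AGGTCA lay in 2 of 7 (Cyp27a1 and Nr5a2, against 14.1% of promoters), and in Cyp27a1 a match of it overlapped the LRH-1 match. The inverted repeat of that core with 1 base between, the FXR type, lay in 0 of 7 (0.0269% of promoters), as did its direct repeat with 1 base between (0.0508%), the HNF4 motif (0.263%) and the HNF1 motif (0.00299%), each searched on both strands. These are matches of letters in a short window and say nothing on binding.

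Each array carried liver RNA in Cy5 and a universal rat reference RNA, made from 14 rat cell lines per the labels, in Cy3, so every level below is given as a log2 ratio of liver over reference or as the median spot intensity of a channel before background correction. The median Cy5 intensity per array was 87 to 102 over a background of 67 to 73, and no spot was saturated. The hepatocyte markers (Alb, Apoa1, Ttr, Tf, Fgb and Serpina1) summed to a Cy5 intensity of 771345 to 1195614 per array, whereas the 3 ileum markers with a probe were never well above background. Arrays of C and CC were all on slide 1 and those of M and MM all on slide 2, so slide and mixture cannot be told apart. Each slide had 2 rows with 2 arrays of each group per row. Cyp1a1 and Cyp2b2, which such chemicals induce, were higher in M than in C by 5.29 and 2.76 and in MM than in CC by 5.34 and 2.17 on the log2 scale, the direction that the exposure labels imply. Array CC 1 stood apart in the reference channel, where the summed Cy3 intensity of the hepatocyte markers was 79073 against 19606 to 22004 on the other arrays of slide 1. On slide 2 this sum was 22882 to 29964, above all arrays of slide 1 but CC 1. Arrays CC 1 and CC 2 also had signal of skeletal muscle and exocrine pancreas markers. The summed Cy5 intensity of the 5 muscle markers with a probe reached 12501 in CC and lay between 470 and 657 in the other groups, and that of the 6 pancreas markers reached 12072 in CC and lay between 499 and 2810 elsewhere, with MM 1 and M 6 the high arrays there (Cy5 intensity of Ctrb1 1519 and 959, against 100 to 250 on the other arrays of M and MM). The brown fat gene Ucp1 had a Cy5 intensity of 339 on CC 1 and 288 on C 10, against 65 to 77 on all others. The part of these markers in the values of the bile acid genes was not tested, and the main values are given without CC 1 as well. Without CC 2 the count of members called was 1 between M and C and 0 in each other comparison, as with it.

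All 10 genes were detected in every pool: their Cy5 signal was well above background on 16 of 16 arrays. The reference signal was not. For Cyp7a1 and Cyp7b1 the Cy3 signal was well above background on 0 of 16 arrays and for Cyp8b1 on 2 of 16, so the size of their log2 ratios depends on the background correction. For the other 7 genes it was above background on 16 of 16 arrays at the only or brighter probe. At the other probe of Nr5a2 it was above background on 14 of 16.

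**Figure D1:**
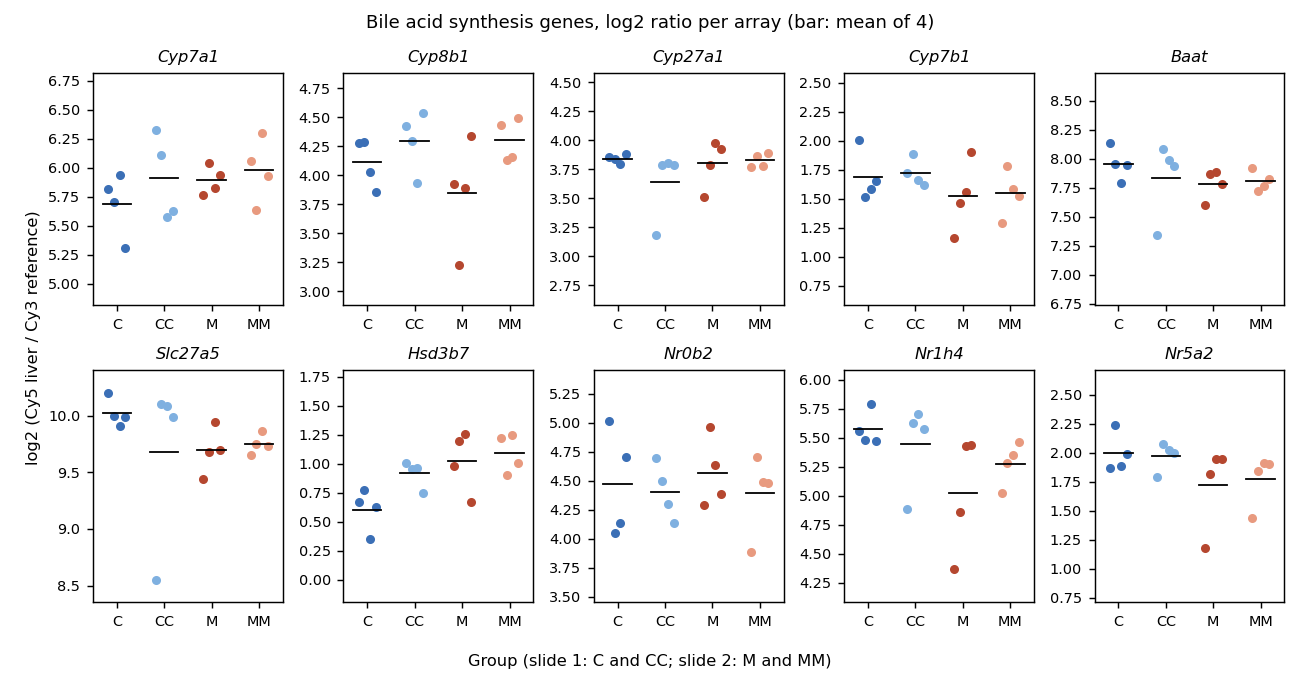
Log2 ratio of liver Cy5 over reference Cy3 for the 10 bile acid synthesis genes, 1 point per array and a bar for the mean of the 4 arrays of a group; each panel has its own range on the vertical axis. The groups overlapped for all genes but Nr1h4 between M and C, and array CC 1 was the lowest point of its group for Cyp27a1, Baat, Slc27a5, Nr1h4 and Nr5a2.

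The comparison of M with C asked whether the mixture changed expression in pups that stayed with their own dams. Of the 10 genes, 1 passed the test and 9 did not: Hsd3b7 was higher in M, by 0.42 on the log2 scale or 1.34-fold. The test was limma over all 12072 genes with Benjamini-Hochberg adjustment and a threshold of 0.05 on the adjusted p. It called 20.2% of all genes in this comparison and 8.3% as higher, so 1 of 10 members is no more than the share of all genes. The 10 differences had a median of -0.17, against -0.05 for all genes, with 3 above and 7 below 0. At an unadjusted p below 0.05 there were 2 of 10 genes (Hsd3b7 and Nr1h4), against 33.5% of all genes. Without the reference channel, on Cy5 alone, 0 of 10 genes were called, as were 2.25% of all genes, and 1 of 10 (Nr1h4) had an unadjusted p below 0.05, against 15.8% of all genes. In whole liver, fewer hepatocytes and less RNA per hepatocyte cannot be told apart.

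Hsd3b7 had log2 ratios of 0.67, 0.78, 0.36 and 0.62 in C 9 to C 12 and of 0.98, 1.19, 1.26 and 0.67 in M 5 to M 8. The M pools were the higher ones except M 8, which lay among the controls, so the groups overlapped. The difference of 0.42 (SE 0.126, 95% interval 0.15 to 0.69, n = 4 and 4) had an adjusted p of 0.0274 in limma. Within the first array row it was 0.37 and within the second 0.47. On Cy5 alone the difference was 0.21 (SE 0.0994, adjusted p 0.336 in limma), and the reference signal of the same probe was lower by 0.30 in M than in C (adjusted p 9.88e-06). The Cy5 intensities behind these values were 96 to 126 in C and 114.8 to 148.2 in M, near the background of the arrays. With the ratio of the scanner software, which adds no offset, the difference was 1.1 (adjusted p 0.00167). The call ended without C 11 (0.34, adjusted p 0.0901), C 12 (0.42, 0.0507), M 6 (0.36, 0.0853) or M 7 (0.34, 0.0832), all in limma.

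The rate-limiting enzyme Cyp7a1 had log2 ratios of 5.82, 5.71, 5.93 and 5.31 in C 9 to C 12 and of 5.77, 6.04, 5.82 and 5.94 in M 5 to M 8. The groups overlapped, with the lowest pool in C and the highest in M. The difference was 0.20 (SE 0.174, 95% interval -0.17 to 0.57, adjusted p 0.447 in limma) and on Cy5 alone 0.14. Cyp8b1, the cholic acid enzyme, ranged from 3.86 to 4.29 in C and had values of 3.93, 3.22, 3.89 and 4.34 in M 5 to M 8. M 6 was the lowest of all 16 arrays and M 8 was above every C pool. The difference was -0.27 (SE 0.190, 95% interval -0.67 to 0.14, adjusted p 0.352), and it was -0.71 within the first array row and 0.17 within the second. With the scanner software's ratio it was -0.87 (adjusted p 0.0718 in limma) and on Cy5 alone -0.12.

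In the alternative pathway neither enzyme passed. Cyp27a1, the side chain hydroxylase, had log2 ratios of 3.80 to 3.88 in C and 3.51 to 3.98 in M, with a difference of -0.04 (SE 0.125, adjusted p 0.853 in limma). Cyp7b1, the oxysterol hydroxylase, had 1.52 to 2.0 in C and 1.16 to 1.91 in M, with a difference of -0.17 (SE 0.144, adjusted p 0.453). Both ranges of M enclosed or reached below those of C.

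The conjugating enzymes did not pass either. Baat, the amino acid transferase, had log2 ratios of 8.13, 7.96, 7.79 and 7.95 in C 9 to C 12 and of 7.60, 7.87, 7.89 and 7.78 in M 5 to M 8. Its difference was -0.17 (SE 0.131, adjusted p 0.386 in limma) and on Cy5 alone 0.02, while its Cy3 signal was 0.30 higher in M (adjusted p 0.0306). Slc27a5, the bile acid coenzyme A ligase, had log2 ratios of 10.20, 9.99, 9.91 and 9.99 in C 9 to C 12 and of 9.44, 9.68, 9.95 and 9.70 in M 5 to M 8. M 7 alone reached into the range of C. The difference was -0.33 (SE 0.249, adjusted p 0.381), and on Cy5 alone it was -0.07 (adjusted p 0.867).

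Among the receptors, the bile acid sensor Nr1h4 had the largest difference of the 10 genes and was the only member whose groups did not overlap, as held for 25.1% of all genes. Its log2 ratios were 5.56, 5.48, 5.79 and 5.47 in C 9 to C 12 and 4.37, 4.86, 5.43 and 5.43 in M 5 to M 8. M 5 and M 6, both in the first array row, were low, and M 7 and M 8 were just below the controls. The difference of -0.55 (SE 0.214, 95% interval -1.01 to -0.10, 0.68-fold) did not pass the test (adjusted p 0.0819 in limma), and was -0.90 within the first row and -0.20 within the second. Over all 4 groups Nr1h4 was 0.39 higher in the second row than in the first (adjusted p 0.0294), where 21.9% of genes were called (0.32, adjusted p 0.0572, and 18.2% of genes without CC 1), and with the row as a block the difference of M from C had an adjusted p of 0.0233. On Cy5 alone it was -0.45 (adjusted p 0.305), and the Cy3 signal was 0.19 higher in M than in C (adjusted p 0.00748). The other, dimmer Nr1h4 probe had a difference of -0.40 (SE 0.128) and passed when all 13262 kept probes were tested on their own (adjusted p 0.037 in limma), with -0.24 on Cy5 alone. Nr1h4 was also called without M 7 (-0.69, adjusted p 0.0428) and without M 8 (-0.69, 0.0441). With the scanner software's ratio it was called as well (-0.57, adjusted p 0.0109 in limma). It was called in 6 of 30 settings in all.

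Nr0b2, the repressor gene that FXR induces, had log2 ratios of 5.02, 4.04, 4.14 and 4.70 in C 9 to C 12 and of 4.29, 4.96, 4.64 and 4.38 in M 5 to M 8, so both groups spread over about the same range. The difference was 0.09 (SE 0.220, 95% interval -0.37 to 0.56, adjusted p 0.81 in limma). The brighter probe of Nr5a2, which encodes LRH-1, had log2 ratios of 1.87 to 2.25 in C and of 1.18, 1.82, 1.95 and 1.95 in M 5 to M 8, with a difference of -0.27 (SE 0.155, adjusted p 0.234). Its other probe gave 0.14 (SE 0.149), of the opposite sign, and neither probe passed.

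Array CC 1 was in neither of these groups but entered the estimate of the spread that all groups shared. Without it, 3 of 10 genes were called between M and C against 22.3% of all genes: Hsd3b7 (0.42, adjusted p 0.029), Slc27a5 (-0.33, adjusted p 0.0222) and Nr1h4 (-0.55, adjusted p 0.0454), all in limma. On Cy5 alone 0 of 10 were called without it. For Slc27a5 the difference on Cy5 alone was then -0.07 (adjusted p 0.839), while the Cy3 signal of its probe was 0.24 higher on slide 2 than on slide 1 (adjusted p 0.00071).

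**Figure D2:**
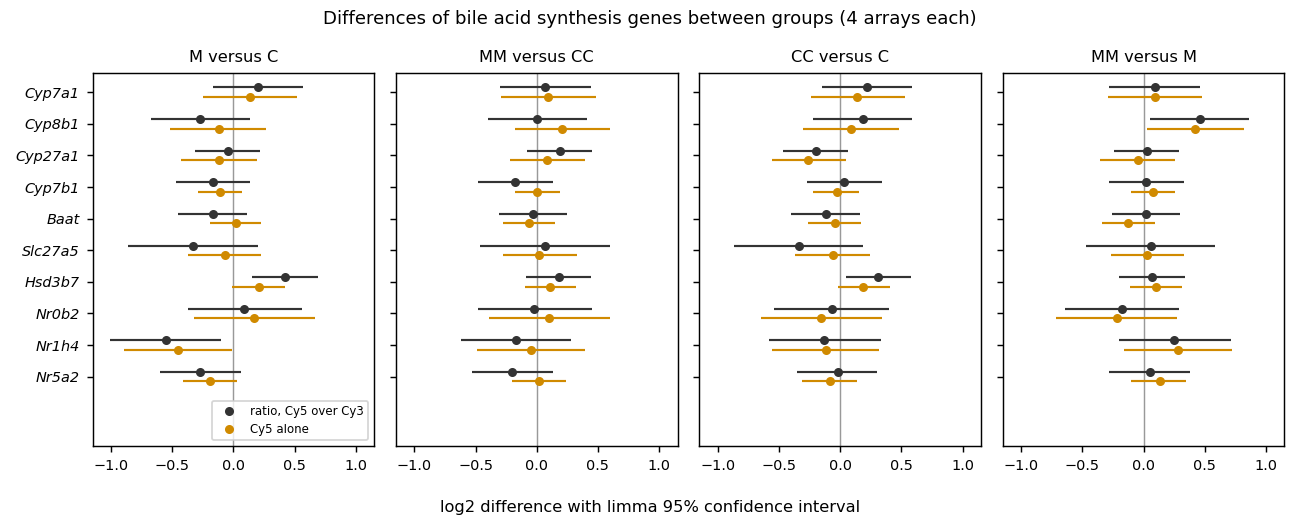
Log2 differences of the 10 genes with limma 95% confidence intervals in 4 comparisons, from the ratio of liver over reference and from the liver channel alone. Between M and C only the intervals of Hsd3b7 and Nr1h4 leave out 0 in the ratio, and the Cy5 estimates of both lie nearer to 0.

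The comparison of MM with CC put the same question to cross-fostered pups. None of the 10 genes passed the test: 0 of 10 were called in limma, 20.2% of all genes were called, and 0 of 10 had an unadjusted p below 0.05, against 33.6% of all genes. The groups did not overlap for 0 of 10, against 22% of all genes. The differences lay between -0.20 and 0.19, with 5 above and 5 below 0 and a median of -0.01 against -0.06 for all genes. Without CC 1 they lay between -0.36 and 0.21. On Cy5 alone 0 of 10 were called, as were 2.57% of all genes, and 0 of 10 had an unadjusted p below 0.05, against 14.8%. Both mixture comparisons have their own control and mixture pools, and the interaction tested whether they differed.

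Hsd3b7 had log2 ratios of 1.01, 0.96, 0.96 and 0.75 in CC 1 to CC 4 and of 1.22, 0.91, 1.25 and 1.01 in MM 1 to MM 4. The groups overlapped through MM 2 and MM 4, and the difference was 0.18 (SE 0.126, 95% interval -0.09 to 0.44, adjusted p 0.349 in limma). With the scanner software's ratio it was 0.72 (adjusted p 0.0228) and with median centring in place of loess 0.38 (adjusted p 0.004), while on Cy5 alone it was 0.11 (adjusted p 0.671). The reference signal of the probe was 0.32 lower in MM than in CC (adjusted p 4.56e-06).

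Nr1h4 had log2 ratios of 4.88, 5.63, 5.71 and 5.57 in CC 1 to CC 4 and of 5.02, 5.28, 5.35 and 5.46 in MM 1 to MM 4. Apart from CC 1, the CC pools lay above all MM pools. The difference was -0.17 (SE 0.214, adjusted p 0.623 in limma) with that array and -0.36 (SE 0.201, adjusted p 0.237) without it. Cyp7a1 had 6.32, 6.11, 5.58 and 5.63 in CC 1 to CC 4 and 6.06, 5.64, 6.30 and 5.93 in MM 1 to MM 4. Its difference of 0.07 (SE 0.174, 95% interval -0.30 to 0.44, adjusted p 0.815) was -0.37 within the first array row and 0.51 within the second, and 0.21 (adjusted p 0.422) without CC 1.

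For the ligase gene Slc27a5 the value turned on array CC 1. Its log2 ratios were 8.55, 10.10, 10.09 and 9.98 in CC 1 to CC 4 and 9.65, 9.75, 9.86 and 9.74 in MM 1 to MM 4. CC 1 was the lowest of the 16 arrays, with M 5 at 9.44 next above it, although its Cy5 intensity of 86385 was within the 84498.5 to 102940 of the other CC arrays. Its Cy3 intensity was 558.5 against 185.5 to 215.2 on the rest of slide 1. The difference between MM and CC was 0.07 (SE 0.249, adjusted p 0.883 in limma) with CC 1 and -0.31 (SE 0.103, adjusted p 0.0497) without it, when 1 of 10 members and 18.4% of all genes were called. On Cy5 alone it was 0.02 with that array and -0.08 (adjusted p 0.866) without it.

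The remaining genes had small differences between MM and CC in the main values. Cyp8b1 differed by less than 0.01 (SE 0.190, adjusted p 0.992 in limma), Cyp27a1 by 0.19 (SE 0.125, adjusted p 0.319) and Cyp7b1 by -0.18 (SE 0.144, adjusted p 0.422). The Cyp8b1 difference was -0.54 with the scanner software's ratio (adjusted p 0.263 in limma) and 0.21 on Cy5 alone. Without CC 1, whose Cyp27a1 ratio was 3.18 against 3.78 to 3.81 in the other CC pools, the Cyp27a1 difference was 0.03. Baat differed by -0.03, Nr0b2 by -0.02 and Nr5a2 by -0.20, with adjusted p of 0.904, 0.971 and 0.4 in limma. Without CC 1 these were -0.20 (adjusted p 0.15), 0.08 (0.847) and -0.26 (0.309), and Cyp8b1 differed by 0.05.

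Cross-fostering itself was compared within a slide, CC with C and MM with M. No bile acid synthesis gene and no other gene passed in either comparison: limma called 0 of 10 members and 0% of 12072 genes. At an unadjusted p below 0.05 there was 1 of 10 members between CC and C, against 334 genes (2.77%), and 1 of 10 between MM and M, against 277 genes (2.29%). On Cy5 alone there were 0 of 10 against 2.38% and 1 of 10 against 2.21%. The groups were apart for 0 of 10 in both, against 2.22% and 1.28% of all genes. Hsd3b7 was the member between CC and C, with 0.36 to 0.78 in C and 0.75 to 1.01 in CC. The groups overlapped slightly, and the difference was 0.31 (SE 0.126, unadjusted p 0.0244, adjusted p 1 in limma). Cyp8b1 was the member between MM and M. Its log2 ratios were 3.93, 3.22, 3.89 and 4.34 in M 5 to M 8 and 4.43, 4.13, 4.16 and 4.49 in MM 1 to MM 4. The difference was 0.46 (SE 0.190, 95% interval 0.05 to 0.86, unadjusted p 0.0285, adjusted p 0.999), and on Cy5 alone it was 0.42 (adjusted p 1). For Cyp7a1 the differences were 0.22 (SE 0.174) between CC and C and 0.09 (SE 0.174) between MM and M. For Nr1h4 they were -0.13 and 0.25 (SE 0.214 each). Without CC 1 the differences between CC and C were 0.08 for Cyp7a1 and 0.06 for Nr1h4, the latter of the opposite sign, and 0.28 for Hsd3b7.

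The interaction, the difference of MM from CC less that of M from C, was called for 0 of 10 members and 0% of all genes in limma, with 0 members and 360 genes (2.98%) at an unadjusted p below 0.05, and 0 members and 2.58% of genes on Cy5 alone. The largest member values were 0.40 for Slc27a5 (SE 0.352), 0.38 for Nr1h4 (SE 0.303), 0.27 for Cyp8b1 (SE 0.268) and -0.24 for Hsd3b7 (SE 0.178), each with an adjusted p of 0.999. Without CC 1 these were 0.02 for Slc27a5 (SE 0.141), 0.19 for Nr1h4, 0.31 for Cyp8b1 and -0.21 for Hsd3b7, each with an adjusted p of 1 in limma. A response in M that was called and in MM that was not is therefore not shown to differ. Over the 10 genes and 4 pairwise comparisons, 39 of 40 intervals lay within 2-fold of no change, the exception being Nr1h4 between M and C, and on Cy5 alone 40 of 40 did. The half-width of the intervals was 0.26 to 0.53. These bounds hold for the main processing only, as ratios of members near background depend on the offset added in background correction. With the scanner software's ratio, which adds no offset, member differences between M and C ran from -0.87 for Cyp8b1 to 1.1 for Hsd3b7, the latter beyond 2-fold. Between MM and CC they ran from -0.54 for Cyp8b1 to 0.72 for Hsd3b7. A change above 2-fold is therefore not excluded for such members.

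**Figure D3:**
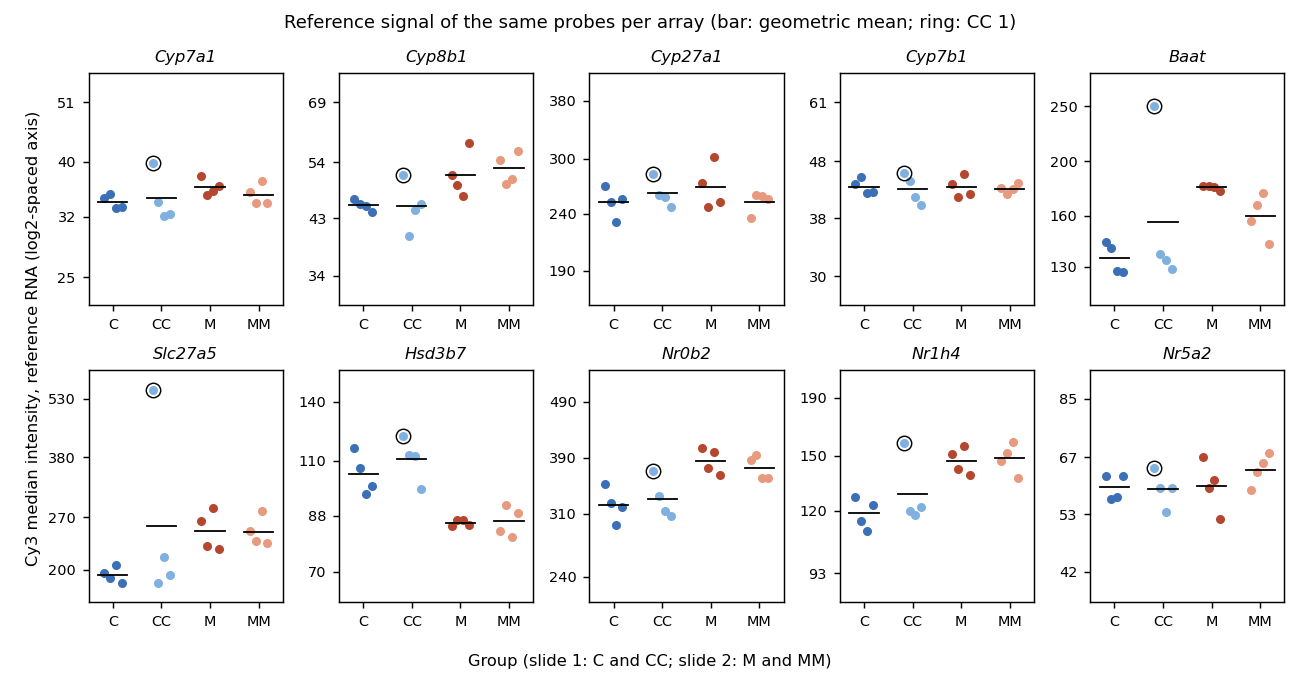
Cy3 median intensity of the reference RNA at the probes of the 10 genes, 1 point per array on a log2-spaced axis, with a bar for the geometric mean of each group and a ring around CC 1. The reference signal of Hsd3b7 was 96 to 121.8 on slide 1 and 80.8 to 92 on slide 2, and CC 1 was far above the rest for Slc27a5 and Baat.

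Per the labels the reference RNA was the same on every array, so its signal at these probes holds no pup RNA by design. That signal differed between slides for 4 of 10 members, against 75.8% of all genes, and was higher on slide 2 for 2 of 10, against 42% of all genes. Without CC 1 it differed for 6 of 10: Baat (0.24, adjusted p 1.08e-05 in limma), Slc27a5 (0.24, 0.00071) and Cyp8b1 (0.09, 0.0377) were then called higher as well, and Cyp7b1 was not called (adjusted p 0.0546). With all arrays, Hsd3b7 was 0.31 lower on slide 2 (SE 0.0288, adjusted p 7.15e-08 in limma) and Cyp7b1 0.05 lower (adjusted p 0.0442, at a signal that was not well above background). Nr1h4 was 0.18 higher (adjusted p 0.00076) and Nr0b2 0.12 higher (adjusted p 1.63e-05). The Cy3 intensity of Nr0b2 was 296.5 to 369 on slide 1 and 358.5 to 405.8 on slide 2. For Cyp7a1 the reference differed by -0.01 (adjusted p 0.807) and for Cyp27a1 by -0.04 (adjusted p 0.216). For Hsd3b7 and Nr1h4, the members with the largest ratio differences between M and C, the reference moved in the direction opposite to the ratio, and the part of that shift in the difference was not tested beyond the Cy5 values above.

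Several of these genes varied more between arrays of a group than most genes did. The standard deviation of the log2 ratio within groups was 0.398 for Slc27a5, 0.349 for Nr0b2, 0.34 for Nr1h4, 0.299 for Cyp8b1 and 0.273 for Cyp7a1, at percentiles 97.4, 96, 95.6, 93.3 and 90.5 of all genes. The median over all genes was 0.148. These percentiles rank bright and dim genes together, and the part of signal level in them was not tested. The Nr1h4 value is of its brighter probe, with 1 spot per array, and its other probe had standard deviations of 0.144 to 0.233 within groups. Any shift between array rows, on average 0.39 for Nr1h4, is part of these spreads. Without CC 1, Slc27a5 had a standard deviation of 0.136 (percentile 46.1), whereas Nr0b2, Cyp8b1, Nr1h4 and Cyp7a1 were at percentiles 96.6, 94.8, 94 and 88.5. For the liver channel alone Nr0b2, Nr1h4, Cyp8b1 and Cyp7a1 stayed at percentiles 97.4, 96, 93.8 and 93.3, whereas Slc27a5 was at 84. Cyp27a1 (0.188) and Hsd3b7 (0.19) were at percentiles 70.1 and 70.8 in the ratio, and at 29.8 and 75.8 without CC 1. In raw Cy5 intensity Nr0b2 ranged from 1733 to 4930 over the 16 arrays, with both the lowest and the highest value on slide 2.

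Whether pools high in a gene of the pathway were also high or low in its partner was examined across arrays. After group means were removed, the 4 pairs examined over 16 arrays (Cyp7a1 with Cyp8b1, Nr0b2 and Cyp7b1, and Nr1h4 with Nr0b2) had Pearson r of -0.04 to 0.14 and Spearman rho of -0.14 to 0.16. None passed a two-sided permutation test (adjusted p 0.89 for each r and 0.813 for each rho over the 4 pairs). With the array row removed as well r was -0.28 to 0.19, on Cy5 alone it was -0.05 to 0.25, and without the 2 arrays farthest from the median of the first gene of a pair it was -0.14 to 0.10. Without CC 1 it was -0.06 to 0.15. Among all named genes outside the pathway lists, those whose residuals were most like Cyp7a1 over the 16 arrays were Ctu1 (r = 0.87, and 0.80 on Cy5 alone), Tnxa-ps1 (0.86 and 0.65) and Tsku (0.84 and 0.85). For Cyp8b1 they were Pim3 (0.81 and 0.70), Lrp5 (0.78 and 0.78) and Cx3cr1 (0.77 and 0.29). For Nr0b2 they were Arhgap24 (0.83 and 0.61), Phlpp1 (0.80 and 0.75) and Cdk2ap2 (0.79 and 0.72). These are the highest values among all genes with a symbol outside the lists, over arrays that share slide, row and reference, and are given as a description. Without CC 1 the 9 values of r in the ratio were 0.76 to 0.84.

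Genes next to these steps of the pathway were counted in the same fit. Of 15 further bile acid synthesis enzymes 11 were tested, and in both mixture comparisons 1 was called higher and 3 lower, with medians of -0.03 and 0.03. Over all genes 20.2% were called in each, with 8.3% and 7.89% higher and 11.9% and 12.3% lower. Without CC 1 these 4 were called again, and Akr1d1 was also called higher between M and C. Akr1c14, a hydroxysteroid dehydrogenase that reduces bile acid intermediates, was higher in M than in C by 0.55 (SE 0.104, adjusted p 0.00155 in limma) and in MM than in CC by 0.63 (adjusted p 0.000627), and it also passed on Cy5 alone (0.51 and 0.65). Amacr, the racemase of the side chain, was lower by 0.50 in M than in C (adjusted p 0.0154) and by 0.42 in MM than in CC (adjusted p 0.0381). On Cy5 alone Amacr differed by 0.05 in both, while Cy3 at its probe was 0.50 higher on slide 2. The peroxisomal transporter Abcd3 (-0.29 in both) and the thioesterase Acot8 (-0.34 in both) were called in the ratio and not on Cy5 alone.

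Of the 11 listed bile acid transporters 9 were tested, and 2 were called, both higher in both mixture comparisons and on Cy5 alone, against 20.2% of all genes called in the ratio and 2.25% and 2.57% on Cy5 alone. Without CC 1 both were called again in the ratio, and between MM and CC Abcc3 was not called on Cy5 alone. Abcc2, the canalicular exporter of conjugates, was higher by 0.37 in M than in C (adjusted p 0.0284 in limma) and by 0.56 in MM than in CC (adjusted p 0.00239). Abcc3, the exporter of the basolateral membrane, was higher by 0.76 and 0.60 (adjusted p 0.000268 and 0.00185). The bile salt export pump Abcb11 (-0.65 and 0.28) and the uptake carrier Slc10a1 (0.03 and -0.02) were not called.

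Of 19 listed regulators 12 were tested, and 3 were called between M and C against 20.2% of all genes. Between M and C the oxysterol receptor Nr1h2 (0.27, adjusted p 0.0366 in limma) and the clock repressor Nr1d1 (0.40, adjusted p 0.0153) were called higher. The liver factor Foxa2 (-0.68, adjusted p 0.0142) was called lower. On Cy5 alone the differences of Nr1h2, Nr1d1 and Foxa2 were 0.02, 0.17 and -0.25. Cy3 at their probes differed on slide 2 from slide 1 by -0.26, -0.28 and 0.42. Between MM and CC 0 of 12 were called against 20.2%, with 4 at an unadjusted p below 0.05 against 33.6%, and without CC 1 Nr1h2 was called higher. With or without that array 0 passed on Cy5 alone in either comparison. Of 10 sterol supply genes 9 were tested and 1 was called in each mixture comparison, against 20.2% of all genes: Abcg5, a subunit of the biliary sterol exporter, was lower by 0.86 in M than in C (adjusted p 0.0296) and by 0.96 in MM than in CC (adjusted p 0.0171), and by 0.81 and 0.82 on Cy5 alone. Without CC 1 Abcg5 was called between M and C and not between MM and CC, in the ratio and on Cy5 alone. No gene of these lists was called between CC and C, between MM and M or in the interaction, where no gene of the array was.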

How the data were processed

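The authors scanned dual-colour Agilent arrays with Agilent Feature Extraction 11.0.1.1, per the file headers. Per channel, the deposited files give a median intensity for every spot and for the background around it. A log10 ratio from the scanner software stands beside these and, per the file headers, 0 or 1 flags for signal well above background, saturation and outlier spots. The log2 ratios in the table of the series that the authors deposited have a normalization that is not given in the sources used here; their slope against the ratios computed here was 0.997 to 1.009.

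Background was corrected by normexp with an offset of 50, outlier spots were left out, and ratios were normalized within arrays by loess with control spots at weight 0 (limma 3.58.1, R 4.3.3, the data.table package (version 1.17.8), jsonlite 2.0.0). The filter required Cy5 well above background on 3 or more arrays in any group of 4 and left 13262 of 30367 probes. A probe counted as above background where most of its spots were, a rule set so that as many probes were kept as in an earlier analysis of these data. The brightest probe stood for a gene with several. Group means were fitted over 16 arrays with eBayes (12 residual degrees of freedom), adjusted by Benjamini-Hochberg over 12072 genes and two-sided. For Cy5 or Cy3 alone, normexp signals were quantile normalized. Precision is limited by the number of arrays. Genes were named through RefSeq on GRCr8; promoters came from the same source. Correlations used 1e+05 permutations.

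The members, lists and rules were chosen with earlier results of these data known. The named genes are all 10 members, up to 4 called genes of smallest p per further list, and for Cyp7a1, Cyp8b1 and Nr0b2 the 3 genes outside the lists with the highest correlation of residuals. Alternatives were other background corrections, ratios, filters, blocks and sets of arrays. The spread, row, list and correlation values without CC 1 were chosen after seeing the data. Other groups and ages of the study were not analysed here.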

Additional observations from a re-analysis of the deposited data

Results flagged for a closer look

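Of 80 sets of 4 arrays (10 genes, 4 groups, log2 ratio and log2 Cy5), 6 had an array farther from the rest than Dixon's 95% critical value for 4 samples allows; chance alone gives about 1 in 20. Array CC 1 gave 4 of them. Its Cyp27a1 ratio was 3.18 against 3.78 for the nearest CC array, and its log2 Cy5 signal of that gene 9.66 against 10.33. Its Slc27a5 ratio was 8.55 against 9.98. Its Nr1h4 ratio was 4.88 against 5.57. In group MM, array MM 3 had a log2 Cy5 signal of Slc27a5 of 16.67 against 16.29, and array MM 1 had an Nr5a2 ratio of 1.44 against 1.85. The reference signal of the hepatocyte markers on CC 1 is given with the results above, and its part in these values was not tested.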

How the results depend on the processing

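Of 1430 values of the members' differences under other settings, 1412 stayed on their side of the threshold, 8 lost a call, 9 gained one and 1 reversed; another 82 changed sign with no call on either side and are among the 1412. Members called between M and C numbered 1. They numbered 2 with the scanner software's ratio, with every kept probe tested on its own, or with array row within slide as a block. With median centring in place of loess (chosen after seeing the data) they also numbered 2. The count was 0 on Cy5 alone or with only the arrays of the groups compared, where fewer arrays estimate the spread. Leaving out arrays in turn gave 0 to 3. Between MM and CC it was 0, and 1 with the scanner software's ratio or with median centring, and 0 to 1 on leaving out arrays. The reversed value was Slc27a5 between MM and CC, 0.07 with all arrays and from -0.31 (without CC 1) to 0.21 on leaving out arrays in turn. Hsd3b7 between M and C was called in 22 of 30 settings (0.21 to 1.1, adjusted p 0.000609 to 0.336 in limma) and Nr1h4 in 6 of 30 (-0.90 to -0.20). The cause was not tested. Between CC and C, between MM and M and in the interaction, 0 members were called in each setting run. Aquantile leaves ratios as they are by construction.

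Replicate numbers 1 to 4 are shared by CC and MM only. Same-numbered arrays deviated together with r of 0.34, 0.05, 0.19 and 0.11, so the numbers were not taken to pair the samples. Each of these pairs also shared an array row, and arrays of the same row but unlike number had r of 0.08 to 0.28. CC 1 and CC 3 correlated best with their own number, CC 2 with MM 1 and CC 4 with MM 3. With the replicate block 0 members were called between MM and CC, as without it, and 2004 genes in place of 2433. Members whose reference or liver signal lies near background, such as Hsd3b7, Cyp7b1 and Nr5a2, have ratios that depend on the offset.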
